A study of Arabidopsis thaliana with 6 samples.

Results

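The 43 genes described here are the core of the cell cycle machinery of *Arabidopsis thaliana*: 8 B-type, 6 A-type and 10 D-type cyclins, 5 cyclin-dependent kinases (CDKs), 9 CDK inhibitors, 3 regulators of the step from G1 into S phase and 2 genes of mitosis. They were chosen by gene family, from identifiers in the deposited tables, out of 33318 named entries. RNA was taken from second internodes of stems, 15–20 cm tall, of plants kept for 3 weeks in short days and then moved to long days. All plants, Col-0 by the labels, carried *pPXY:GR-ARF5∆III/IV*, in which the *PXY* promoter, active in cambium stem cells, drives an ARF5 protein that lacks the part bound by AUX/IAA repressors. The fused glucocorticoid receptor domain holds this protein outside the nucleus until dexamethasone (Dex) is given. Of the 6 libraries, 3 came from mock-treated plants and 3 from plants treated with 15 µM Dex for 3 h. The purpose of the comparison was to see which genes respond when auxin signalling is raised in *PXY*-positive cells. Plants that lack the transgene and received Dex were not analysed here, so an effect of Dex itself cannot be told apart from one of ARF5. The methods give 3 plants for each replicate, whereas the deposited design text has RNA of 3 samples pooled. How far the libraries of a group are separate plants is therefore not stated, and p-values measure the spread between these libraries.

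The cell cycle is driven by CDKs, which are active only when bound to a cyclin. In plants, D-type cyclins with the kinase CDKA phosphorylate the retinoblastoma protein RBR1, which then lets go of E2F transcription factors and so opens the way to DNA replication. A-type cyclins act mainly in S phase and G2, whereas B-type cyclins and the plant-specific CDKB kinases act at mitosis, where MYB3R transcription factors bind a short promoter word with the core AACGG. KIP-RELATED PROTEINs (KRPs) and the SIAMESE family inhibit CDKs. In stems, the cambium adds xylem and phloem by cell division, and D3-type cyclins are known to promote its activity.

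The libraries held 22871927 to 32099136 reads in genes. Values are given as CPM, read counts scaled to library size after TMM normalization, or as RPKM, which are also scaled to exon length, where levels of different genes are compared. Mock replicate 2 stood apart from the other mock libraries. On the first principal component, which held 49.4% of the variance, it lay at -9.75 against -50.4 and -50.6 for the other mock libraries and 30.1 to 44.2 for the Dex libraries. Where a named gene passed only when this library was left out, that value is given beside it. The transgene shares its sequence with *ARF5*, whose reads came to 231–277 CPM without and 205–230 CPM with Dex, which is no check of induction since Dex acts on the protein. Mock means of vascular markers ranged from 9.12 CPM (*APL*, phloem) to 1531 CPM (*IRX5*, xylem). Of the 3 markers of the shoot apical meristem, *WUS* and *CLV3* were listed at 0, and *STM* measured 155–199 CPM without and 192–219 CPM with Dex (log2 0.28, adjusted p = 0.218, or 0.0367 without mock replicate 2).

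The promoters of 4 members are shown with the known words of cell cycle and auxin regulators that they hold, so that the genes described first among the G1 and mitotic members can be read beside their values. The first 2 belong to the only members that rose with Dex. The other 2 belong to mitotic genes with values lower after Dex, of which neither passed (adjusted p = 0.211 and 0.0771 by edgeR). All 4 were picked by the values of their genes, so they do not link a word to a direction. Each is the 250 bases before the annotated gene start, read 5′ to 3′ on the gene's strand from the RefSeq annotation of TAIR10.1. Capitals mark AACGG or its reverse complement CCGTT, and the auxin response words TGTCTC and TGTCGG.
CYCD6;1, chr4:1433862-1434111, minus strand: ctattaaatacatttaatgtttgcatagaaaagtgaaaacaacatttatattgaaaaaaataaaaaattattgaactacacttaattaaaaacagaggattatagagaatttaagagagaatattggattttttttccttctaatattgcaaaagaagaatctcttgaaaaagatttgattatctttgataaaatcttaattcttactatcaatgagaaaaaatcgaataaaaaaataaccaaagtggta
CYCD3;2, chr5:26835889-26836138, plus strand: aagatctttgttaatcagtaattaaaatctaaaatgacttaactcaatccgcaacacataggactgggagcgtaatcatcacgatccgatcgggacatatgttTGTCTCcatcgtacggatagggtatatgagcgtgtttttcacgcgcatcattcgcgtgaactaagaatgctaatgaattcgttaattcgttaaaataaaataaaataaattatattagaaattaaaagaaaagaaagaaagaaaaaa
CYCB1;2, chr5:1861704-1861953, minus strand: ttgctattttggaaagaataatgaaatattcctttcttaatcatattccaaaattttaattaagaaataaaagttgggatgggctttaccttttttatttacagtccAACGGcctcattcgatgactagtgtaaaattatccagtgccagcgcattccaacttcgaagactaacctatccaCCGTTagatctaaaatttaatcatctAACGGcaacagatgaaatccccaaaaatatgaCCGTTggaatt
KNOLLE, chr1:2711001-2711250, minus strand: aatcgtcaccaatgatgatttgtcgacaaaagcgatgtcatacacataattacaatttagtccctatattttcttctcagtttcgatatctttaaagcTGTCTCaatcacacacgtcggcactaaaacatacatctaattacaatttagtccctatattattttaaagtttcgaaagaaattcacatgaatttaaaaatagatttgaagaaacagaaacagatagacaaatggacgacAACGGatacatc
No word in capitals occurs in the first stretch, 1 TGTCTC in the second, 4 copies of AACGG on either strand in the third, and 1 TGTCTC and 1 AACGG in the last. All 43 members matched the annotation, and the search was widened to 250 bases before and 50 after each gene start, on both strands. AACGG occurred in 7 of 8 B-type cyclins (87.5%) and in 1 of 10 D-type cyclins (10%), against 24.7% of the promoters of 27443 protein-coding genes. It was also found in 2 of 3 G1/S regulators (66.7%), 5 of 9 inhibitors (55.6%), 3 of 6 A-type cyclins and 1 of 5 CDKs, and in all in 20 of 43 members (46.5%), of which 9 were among the 14 G2/M members. TGTCTC or TGTCGG occurred in 7 of 43 members (16.3%), against 18.7% of all promoters. The E2F words TTTCCCGC, TTTGGCGC, TTTCGCGC and TTTGCCGC occurred in 2 members, *RBR1* and the D3-type cyclin AT3G50070, against 1.76% of all promoters. A match describes letters only, and the absence of one says that these letters are not in this window.

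The members differed widely in level per exon length (RPKM) in mock-treated stems. CDK inhibitors took 4 of the first 5 places, with *SIM*, which blocks mitosis in cells that enlarge by endoreduplication, at 66.6 ± 5.81 RPKM (SD, n = 3). *KRP2* followed with 62.3 ± 13.0 RPKM, then the kinase *CDKA;1*, which serves all phases, with 61.9 ± 0.633 RPKM, *SMR1* with 52.8 ± 9.17 RPKM and *KRP6* with 23.5 ± 3.29 RPKM. *SIM* overlapped with *KRP2*, and *KRP2* with the kinase, whereas every library of the kinase was above every library of *SMR1*, and the same held for *SMR1* over *KRP6* and for *KRP6* over *KRP1* (15.0 ± 2.51 RPKM). Below these came the D-type cyclins AT4G34160 (14.9 ± 0.411 RPKM) and AT2G22490 (14.5 ± 0.634 RPKM), followed by *KRP4* (13.7 RPKM), *KNOLLE* (12.1 RPKM) and *RBR1*. From *KRP1* to *RBR1*, no gene was separated from the next. B-type cyclins were low throughout, between 0.193 and 3.67 RPKM. Among the lowest were *KRP3* (0.478 RPKM), the cyclins AT5G10440, AT1G80370 and AT5G25380 (0.349, 0.267 and 0.234 RPKM) and AT2G17620 (0.193 RPKM), and no pair of adjacent genes among these 5 was separated. The D7-type cyclin AT5G02110, known from the stomatal lineage, had no read in any library, which allows up to 0.0943–0.135 CPM depending on the library.

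**Figure D1:**
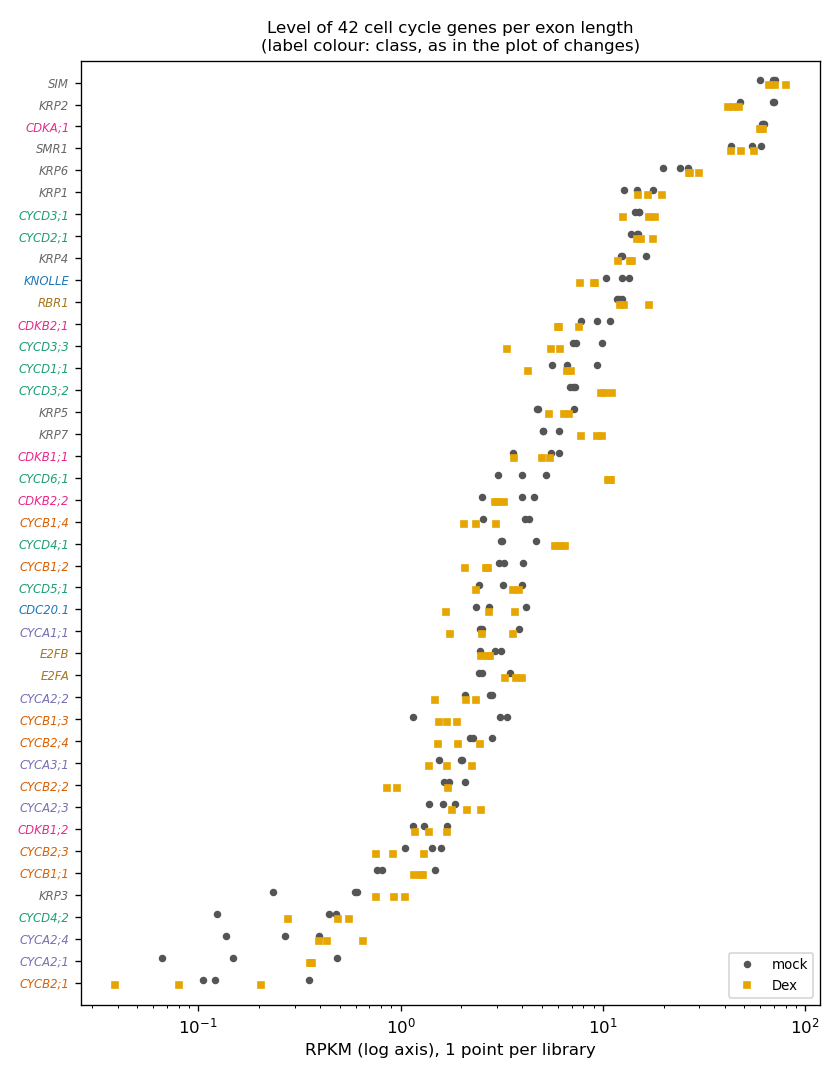
RPKM of the 42 members with reads in each of 6 libraries, on a logarithmic axis, ordered by the mock mean, with circles for mock and squares for Dex. Inhibitors and the kinase of all phases stand at the top (52.8 to 66.6 RPKM), and the D-type cyclin in place 19 has its squares far to the right of its circles, at 10.8 against 4.08 RPKM.

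Of the 43 members, 41 had enough reads to be tested. By edgeR's quasi-likelihood test with Benjamini-Hochberg adjustment over 19347 genes, 2 members rose with Dex, *CYCD6;1* and *CYCD3;2*, and 0 fell. Among all genes tested, 4.63% rose and 2.07% fell (6.69% in either direction), so the share of members that rose was close to that background. At an unadjusted p under 0.05, 4 members were higher and 5 lower, where the background was 12.4% and 10.2%. DESeq2 called 4 members higher and 3 lower, with backgrounds of 7.23% and 4.9%, and limma-voom called 1 and 0, with backgrounds of 4.53% and 1.66%. In 6 members every Dex library was above every mock library (background 15.2%), and in 5 every Dex library was below (background 12.1%). The fitted changes lay above 0 for 20 members and below 0 for 21, with a median log2 fold change of -0.06 against -0.01 over all genes. By phase, 9 of 12 tested G1 members and 3 of 6 A-type cyclins were above 0, whereas 11 of 13 tested G2/M members were below 0, where 51.5% of all genes were below 0. The median log2 change was 0.14 for the G1 members and -0.46 for the G2/M members. These counts describe the members and are no test of a phase. The members AT4G03270, AT5G65420 and AT3G50070 are also in a list that the study selected on these same libraries, so their direction here is not independent of it. In bulk tissue, fewer cells of a type and less RNA per cell cannot be told apart.

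**Figure D2:**
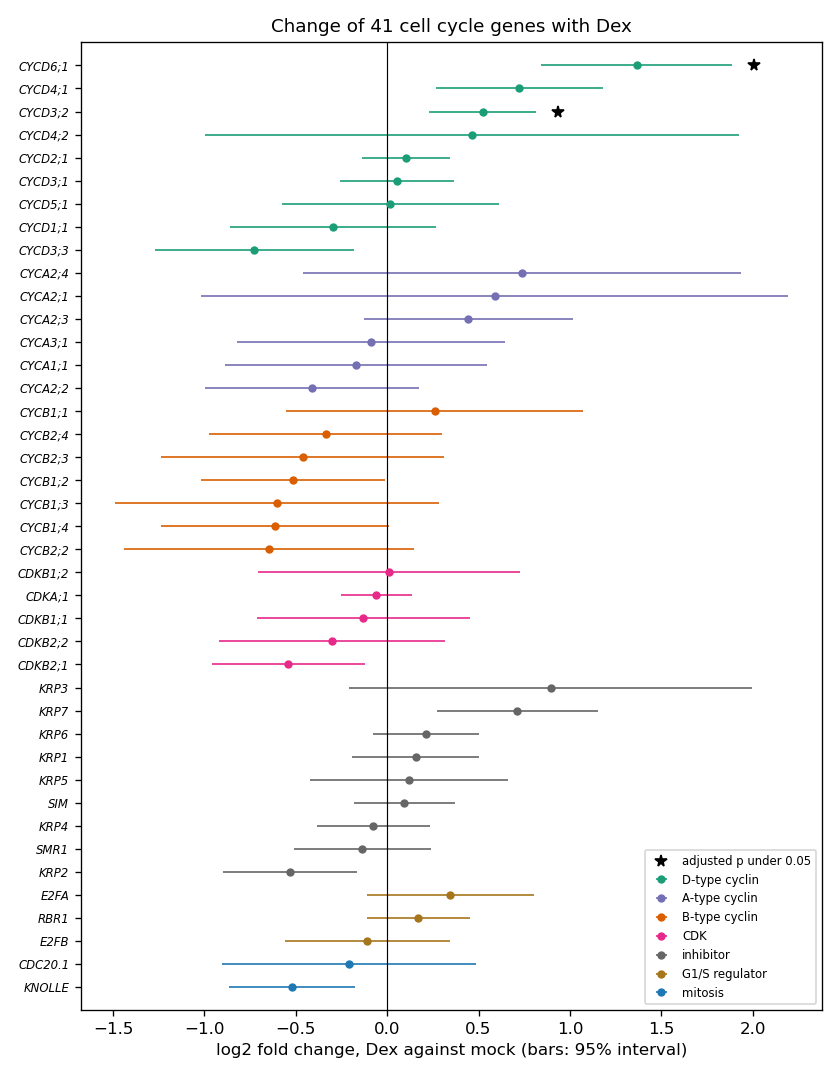
Log2 fold change with Dex (horizontal axis) of the 41 tested members, grouped by class, with bars for 95% intervals and stars for an adjusted p under 0.05. The 2 stars, both among D-type cyclins, are at 1.37 and 0.52, and 6 of 7 B-type cyclins lie below 0 with intervals that mostly cross it.

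D-type cyclins are the partners through which growth signals and hormones reach the G1 phase. Of the 9 tested, 7 were above 0 and 2 passed the threshold, both upward. *CYCD6;1* (AT4G03270, chr4:1431844-1433861) is known from roots as a direct target of the SHORT-ROOT and SCARECROW factors and drives the formative division that separates cortex from endodermis. It measured 4.92, 2.72 and 3.66 CPM in mock replicates 1 to 3 and 9.57, 9.60 and 9.90 CPM in Dex replicates 1 to 3. All Dex libraries lay near one level and above all mock libraries. The level was 2.58-fold higher with Dex (95% interval 1.79 to 3.70, log2 1.37 ± 0.23 SE, adjusted p = 0.0112), the largest fitted rise among the 41 tested members. In the order of RPKM values the gene moved from place 19 in mock to place 11 with Dex. Without Dex replicate 1, 2 or 3 the adjusted p was 0.0503, 0.0557 and 0.0590, and without mock replicate 2 it was 0.00435, with log2 changes between 1.18 and 1.59 when any library was left out.

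In the annotation, 15 members overlap a neighbouring gene, and 6 of them share coding bases with its exons. *CYCD6;1* overlaps AT4G03260 on the opposite strand by 847 bases, and exons of this neighbour cover 230 of the cyclin's coding bases. The neighbour measured 105–125 CPM without and 159–177 CPM with Dex (log2 0.58, adjusted p = 0.0167 by edgeR). The libraries mark the strand, but whether the counting used it is not stated, and the part of the neighbour's reads in these counts was not tested. A comparison of reads assigned to the exon junctions of a gene was added after the overlap had been seen. Whether strand was used in assigning these reads is not stated either. For *CYCD6;1* there were 36, 22 and 30 such reads in mock and 45, 80 and 120 in Dex replicates 1 to 3. Every Dex library again lay above every mock library, with a log2 change of 1.18 (unadjusted p = 0.00510 and adjusted p = 0.111 by edgeR, over 13270 genes). Of these genes 283 passed, and none of the 32 members tested in this way did.

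*CYCD3;2* (AT5G67260, chr5:26836139-26839597) belongs to the D3 group that keeps cambium cells dividing. It measured 10.6, 9.69 and 10.2 CPM in mock and 13.3, 15.7 and 14.7 CPM in Dex replicates 1 to 3. The groups did not overlap, and the rise was modest, 1.44-fold (1.17 to 1.76, log2 0.52 ± 0.13 SE, adjusted p = 0.0482). The call lay at the threshold and was lost in 11 of 19 alternatives, among them limma-voom (0.0567), scaling by RLE factors (0.0503) and the omission of any 1 library but mock replicate 2: adjusted p = 0.118 and 0.111 without mock replicates 1 and 3, and 0.0892, 0.178 and 0.160 without Dex replicates 1, 2 and 3. Its neighbour on the other strand, AT5G67265, covers 54 of its coding bases and had at most 0.215 CPM in any library. Reads across its exon junctions came to 28, 14 and 10 in mock and 47, 48 and 58 in Dex replicates (log2 1.30, adjusted p = 0.159).

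The other 2 members of the D3 group took different values. AT3G50070 (*CYCD3;3*) had 10.5, 13.7 and 9.95 CPM in the mock libraries and 7.37, 4.66 and 8.58 CPM after Dex. Its groups did not overlap either, but with the opposite sign (log2 -0.73 ± 0.24 SE, adjusted p = 0.113), and its call was not made by edgeR, whereas DESeq2 gave an adjusted p of 0.0452. Reads across its junctions did overlap, with 20, 37 and 32 in mock and 14, 25 and 45 in Dex libraries (log2 -0.36, adjusted p = 0.764 by edgeR). Its paralog *CYCD3;1* (AT4G34160), which cytokinin is known to induce, differed by log2 0.05 (95% interval -0.26 to 0.36).

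*CYCD4;1* (AT5G65420), a D-type cyclin with roles in the root pericycle and in stomatal precursors, measured 5.73, 5.57 and 8.66 CPM in the mock libraries and 10.6, 10.5 and 11.8 CPM after Dex. All Dex libraries were above the mock libraries, of which replicate 3 was the highest. The difference of log2 0.72 ± 0.20 SE did not pass (adjusted p = 0.0697) except without that replicate (0.0236) or with DESeq2 (0.0231). The most abundant D-type cyclin by CPM, *CYCD2;1* (AT2G22490), a cyclin linked to sugar supply, had 26.1, 25.4 and 23.8 CPM in the mock libraries and 29.1, 26.4 and 25.5 CPM after Dex. Its groups overlapped, with a 95% interval of -0.14 to 0.34 for the log2 change. The remaining D-type cyclins tested, AT1G70210, AT4G37630 and AT5G10440, had changes of -0.30 to 0.46 with adjusted p of 0.525 or more.

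**Figure D3:**
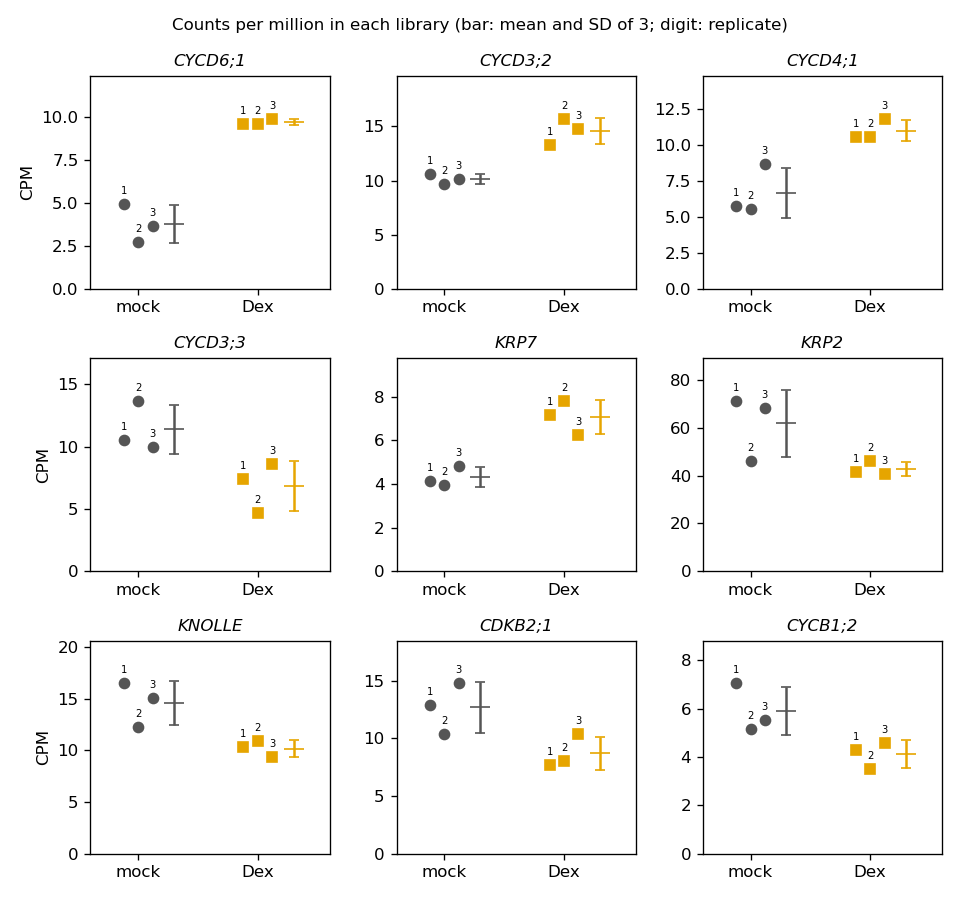
CPM (vertical axes from 0) of the 9 members with an unadjusted p under 0.05 in each of 3 mock (circles) and 3 Dex (squares) libraries, numbered by replicate, with bars for mean and SD. *CYCD6;1* goes from 2.72–4.92 to 9.57–9.90 CPM, while mock replicate 2 of *KRP2* (46.0 CPM) lies at the level of the Dex libraries.

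Downstream of the D-type cyclins, the 3 G1/S regulators did not pass. *RBR1*, the retinoblastoma protein on which CDK complexes act, measured 43.6, 44.4 and 43.7 CPM in the mock libraries and 58.7, 43.5 and 46.1 CPM after Dex. Dex replicate 1 stood above the other libraries, which lay between 43.5 and 46.1 CPM (log2 0.17, adjusted p = 0.460). The E2F factors, which turn on replication genes, differed by log2 0.35 (*E2FA*, adjusted p = 0.345) and -0.11 (*E2FB*, adjusted p = 0.792).

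A-type cyclins showed no common direction, with 3 of 6 above 0. None passed by any of the 3 tools, and 0 had an unadjusted p under 0.05. The values of AT1G80370 met at the edge, with 0.226–0.623 CPM without and 0.623–0.999 CPM with Dex. The most abundant, *CYCA1;1*, had 4.24, 3.97 and 6.29 CPM in the mock libraries and 2.75, 5.86 and 4.24 CPM after Dex. Its groups overlapped widely (log2 -0.17, adjusted p = 0.793), and its sign turned without mock replicate 3 (0.0652) or Dex replicate 1 (0.0649). AT1G15570, with a log2 change of 0.44 (adjusted p = 0.335), overlaps the auxin-induced gene AT1G15580 (*IAA5*) on the opposite strand by 48 bases outside its coding part. That neighbour rose, from 4.42–8.31 to 24.1–36.8 CPM (adjusted p = 0.00131), and its part in the counts of the cyclin was not tested.

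B-type cyclins are made in cells about to divide. Of the 7 tested, 6 had changes below 0, with a median log2 change of -0.52 against -0.01 over all genes. None passed by edgeR, by DESeq2 or by limma-voom, whereas 1 had an unadjusted p under 0.05. *CYCB1;2* (AT5G06150, chr5:1859279-1861703) measured 7.04, 5.14 and 5.51 CPM in the mock libraries and 4.29, 3.48 and 4.59 CPM after Dex. The groups did not overlap, although the gap between them was narrow (log2 -0.52 ± 0.22 SE, adjusted p = 0.211), and 86.6% of its reads were uniquely mapped. The other B-type cyclins ranged from -0.65 to 0.26, and the only value above 0 was that of AT4G37490, a gene also induced by DNA damage. The SE of these changes was 0.22 to 0.39. One B-type cyclin, AT2G17620, had 2 to 13 reads in each library and was not tested.

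Of the other mitotic members, 5 of 6 had changes below 0. *KNOLLE* (AT1G08560, chr1:2709525-2711000), a syntaxin of the growing cell plate, measured 16.5, 12.3 and 15.0 CPM in the mock libraries and 10.3, 10.8 and 9.31 CPM after Dex. Its groups did not overlap (log2 -0.52 ± 0.15 SE, adjusted p = 0.0771), and DESeq2 gave an adjusted p of 0.0415. It overlaps AT1G08550 on the opposite strand by 464 bases and shares 211 coding bases with its exons. This neighbour measured 48.2–72.7 CPM without and 37.2–56.9 CPM with Dex. The part of that neighbour in the counts was not tested, and only 2 to 14 reads in each library crossed the junctions of *KNOLLE*. *CDKB2;1* (AT1G76540), a kinase made from G2 to mitosis, had 12.9, 10.4 and 14.8 CPM in the mock libraries and 7.70, 8.06 and 10.3 CPM after Dex. The highest Dex library was just below the lowest mock library (log2 -0.54 ± 0.18 SE, adjusted p = 0.120). Junction reads of this gene overlapped, with 76, 54 and 83 in mock and 55, 51 and 90 in Dex libraries. Their log2 change was -0.39 (adjusted p = 0.579 by edgeR). The other 3 CDKB genes differed by -0.30 to 0.01. *CDC20.1*, an activator of the anaphase-promoting complex, differed by -0.21 (adjusted p = 0.729), with 63.2% of its reads uniquely mapped.

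The kinase of all phases, *CDKA;1*, differed little. It measured 91.6, 88.2 and 88.1 CPM in the mock libraries and 81.6, 87.6 and 87.7 CPM after Dex. All Dex libraries lay just below all mock libraries (log2 -0.06, 95% interval -0.25 to 0.13, adjusted p = 0.724).

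By edgeR at the adjusted threshold, members were called lower only without mock replicate 2, whereas DESeq2 called 3 lower with all libraries. In this library the median of the 13 tested G2/M members was -0.06 on the log2(CPM + 0.5) scale relative to the mean of 6 libraries, whereas it was 0.30 and 0.36 in mock replicates 1 and 3 and -0.22, -0.15 and -0.03 in the Dex libraries. It thus lay with the Dex libraries rather than with its own group. Without it, 5 members fell: *KRP2* (log2 -0.71, adjusted p = 0.00175), *KNOLLE* (-0.63, 0.0153), *CYCB1;3* (-0.96, 0.0283), *CDKB2;1* (-0.67, 0.0289) and *CYCB1;4* (-0.83, 0.0383), against 7.96% of all genes. The 2 B-type cyclins among them were singled out after their values were seen. With all libraries their groups overlapped (log2 -0.60 and -0.61, adjusted p = 0.401 and 0.226 by edgeR). Upward, the same 2 D-type cyclins were called without this library as with it, against 9.79% of all genes. For D-type cyclins the medians were -0.19, -0.10 and 0.02 in mock and 0.16, 0.12 and 0.21 in Dex libraries, so that all Dex libraries lay above all mock libraries. The same held for the inhibitors, with medians of -0.04, -0.15 and -0.09 in mock and 0.03, 0.12 and 0.05 in Dex libraries. Of the 9 tested D-type cyclins, 3 were themselves higher and 1 lower without overlap, and of the 9 inhibitors 2 and 0. Among all genes tested the shares were 15.2% and 12.1%. The medians describe these members and were not tested.

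Photosynthesis genes of the green cortex varied along with the mitotic members. The summed level of *CAB1*, *RBCS3B* and *RBCS1A* was 16230, 8277 and 15353 CPM in mock replicates 1 to 3 and 6616, 9387 and 9383 CPM in Dex replicates 1 to 3. Mock replicate 2 was again at the level of the Dex libraries, and all 3 genes had changes below 0 that did not pass with all libraries (adjusted p = 0.117 to 0.261). Without mock replicate 2 all 3 passed, with adjusted p of 0.0100, 0.00613 and 0.0165. Their part in the result was not tested. Of the cambium markers, *WOX4* measured 32.0, 38.5 and 46.8 CPM in mock replicates 1 to 3 and 30.5, 30.7 and 29.8 CPM in Dex replicates 1 to 3. It was thus below every mock library in every Dex library (log2 -0.36, unadjusted p = 0.0283 and adjusted p = 0.161 by edgeR), and its part in the result was not tested. The more abundant *PXY* overlapped between the groups (log2 -0.11, adjusted p = 0.718), and so did the sum of both (274–368 CPM without and 270–338 CPM with Dex). The sums of xylem (4208–4766 and 3543–4884 CPM) and epidermis markers (353–385 and 315–377 CPM) overlapped as well. Phloem markers summed to 330–371 CPM without and 321–326 CPM with Dex. Each of the 3 overlapped between the groups, and 2 had changes below 0, whereas that of *APL* was above (log2 0.21). The flower genes *AP1*, *AP3* and *AG* together stayed at 0.195 CPM or less.

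**Figure D4:**
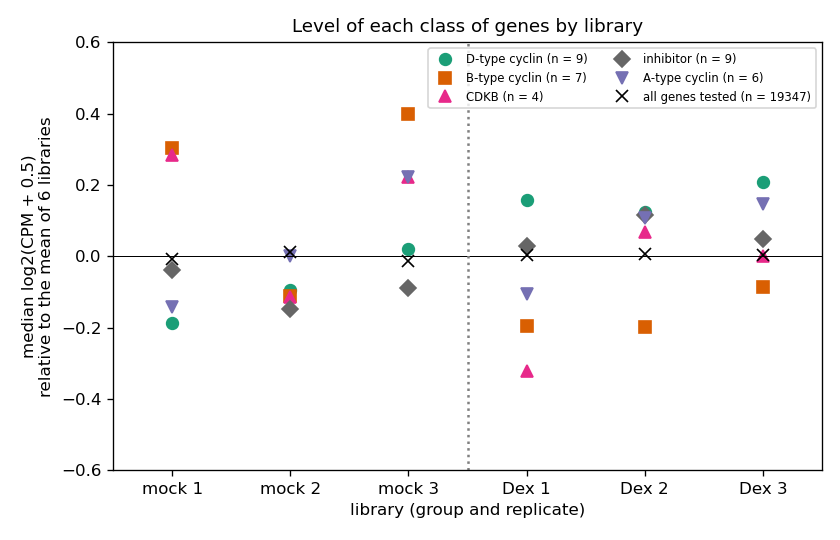
Median log2(CPM + 0.5) of each class, relative to the mean of 6 libraries, in each library. B-type cyclins stand at 0.30 and 0.40 in mock replicates 1 and 3 but at -0.11 in mock replicate 2, near the Dex libraries (-0.20 to -0.09), whereas D-type cyclins are at 0.12 to 0.21 in all Dex libraries.

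Single CDK inhibitors went in both directions. Of 9 members 6 were above 0, and none passed by edgeR, with 1 higher and 1 lower at an unadjusted p under 0.05. *KRP2*, which is known from roots to hold back lateral root initiation and to be lowered by auxin there, measured 71.3, 46.0 and 68.5 CPM in the mock libraries and 41.4, 46.0 and 40.9 CPM after Dex. Mock replicate 2 equalled the highest Dex library, and the other mock libraries were well above all of them (log2 -0.53 ± 0.16 SE, adjusted p = 0.0883, or 0.0305 with DESeq2). Junction reads of *KRP2* overlapped, with 266, 192 and 293 in mock and 168, 262 and 302 in Dex libraries. Their log2 change was -0.31 (adjusted p = 0.541 by edgeR). *KRP7* had 4.15, 3.97 and 4.82 CPM in the mock libraries and 7.16, 7.81 and 6.26 CPM after Dex. All Dex libraries were higher (log2 0.71 ± 0.19 SE, adjusted p = 0.0656), and the call was made by DESeq2 (0.0229) and by limma on RPKM values in all 3 settings (0.0314 to 0.0478). Reads across its junctions did not show this difference, with 24, 9 and 26 in mock and 22, 31 and 20 in Dex libraries (log2 0.06, adjusted p = 0.976). *SIM* measured 56.6, 47.1 and 56.5 CPM in the mock libraries and 50.4, 63.8 and 56.8 CPM after Dex, overlapping widely (log2 0.09, 95% interval -0.18 to 0.37). Of the other inhibitors, *KRP3* measured 0.271–0.689 CPM without and 0.843–1.20 CPM with Dex, without overlap (log2 0.89, adjusted p = 0.314), and *KRP1*, *KRP4*, *KRP5*, *KRP6* and *SMR1* had changes of -0.14 to 0.21. *SIM* and *SMR1* share 238 and 287 coding bases with neighbours on the other strand for which no value was analysed here, and 0 reads were listed across junctions for either.

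Beyond the members, 62 further cell cycle genes were examined, of which 60 were tested. By the same edgeR test 1 rose and 1 fell, where 4.63% and 2.07% of all genes tested did. *CYCH;1* (AT5G27620), the partner of the kinases that activate CDKs, rose from 14.3, 14.9 and 12.8 CPM in mock to 21.8, 18.9 and 22.6 CPM in Dex libraries (1.505-fold, log2 0.59 ± 0.13 SE, adjusted p = 0.0290). The S phase cyclin *CYCA3;2* (AT1G47210) fell from 15.3, 13.8 and 16.1 CPM to 9.57, 7.84 and 8.65 CPM (log2 -0.80 ± 0.14 SE, adjusted p = 0.0134). Neither gene overlapped between the groups. Leaving out 1 library took the adjusted p to between 0.0122 and 0.120 for the first, which was called only without mock replicate 2, and to between 0.00485 and 0.0710 for the second, which was lost without mock replicate 1 and without Dex replicate 2 or 3. Among other G1 and S phase genes, such as those of the replication helicase and its loading, 17 of 25 were above 0 (median log2 0.22), and among other G2 and M phase genes 15 of 24 were below 0 (median -0.19). Among all genes tested, 51.5% were below 0. Of the 60 tested further genes, 9 were higher and 12 lower without overlap between the groups, against 15.2% and 12.1% of all genes tested. Of the CDK activators and further inhibitors of the SIAMESE family, 7 of 11 were below 0 (median -0.20), and in 4 every Dex library was below every mock library. These were the CDK-activating kinase AT4G28980 (log2 -0.34, adjusted p = 0.112) and *SMR2*, *SMR6* and *SMR7* (log2 -0.77, -1.65 and -0.80, adjusted p = 0.141, 0.128 and 0.0637), singled out after their values were seen. Without mock replicate 2, 5 of the 60 tested further genes fell and 2 rose, where 7.96% and 9.79% of all genes did. Those that fell were *SMR7* (adjusted p = 0.0196), AT4G28980 (0.0495), the ribonucleotide reductase gene *TSO2* (0.0200), the spindle checkpoint gene *MAD2* (0.0264) and the S phase cyclin named above, and *DEL2* (0.0335) rose beside the activator cyclin.

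Of the regulators of *CYCD6;1* known from roots, none passed with all libraries. *SHR* measured 55.4, 46.2 and 53.3 CPM in the mock libraries and 65.9, 66.6 and 61.9 CPM after Dex, without overlap (log2 0.33 ± 0.10 SE, adjusted p = 0.0912). *SCR* overlapped between the groups (log2 -0.02, adjusted p = 0.976). *JKD*, a zinc finger partner of both factors, had 15.4, 10.98 and 17.4 CPM in the mock libraries and 8.70, 8.91 and 9.75 CPM after Dex, also without overlap (log2 -0.68 ± 0.18 SE, adjusted p = 0.0626). Mock replicate 2 was the lowest of its group, and without it the gene passed (log2 -0.85, adjusted p = 0.00413).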

How the data were processed

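RNA of second internodes was sequenced as single reads, which the authors aligned to the TAIR10 genome with CLC Genomics Workbench. The deposited tables give, for each gene, counts of reads in the gene, in its exons, across exon junctions and uniquely mapped, beside RPKM values, which are the authors' exon reads per exon length and library total. Of 33323 entries, 5 without a gene name (0.0803% to 0.0998% of the reads) were left out. Between 96.8% and 97.1% of the reads were unique.

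Counts over whole genes of 3 mock and 3 Dex libraries were compared in R 4.3.3 by edgeR 4.0.16 (quasi-likelihood test), with TMM factors of 0.969 to 1.04, a minimum count of 10 and a minimum total of 15 in edgeR's filter on low counts, Benjamini-Hochberg adjustment over 19347 genes and a threshold of 0.05. Groups were taken from the sample labels. Intervals cover the error of the fit or, for genes without reads, 3 counts per library and counting error only. RPKM values were compared without a test. Alternatives were DESeq2 1.42.0, limma 3.58.1 on voom values and on log2(RPKM + 0.1) or log2(RPKM + 1), RLE factors, library totals alone, no filter, unique or exon reads, a replicate block, an unadjusted p, the omission of each library and, chosen after seeing the data, reads across exon junctions. The scripts were tested on simulated data.

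The members and gene lists were chosen with earlier results of these data known. Named with a value for every library are members that passed, members at an unadjusted p under 0.05 and the most abundant of each class. Other genes named with values include, from each further list, those that passed with the smallest adjusted p. All 3 regulators of *CYCD6;1* were named after their values were seen. So were further genes that did not pass with all libraries, for lack of overlap between the groups or a call without mock replicate 2. Overlapping genes and promoters were taken from TAIR10.1, whose nuclear chromosomes have the sequence of TAIR10. A search of proteins was not run.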

Additional observations from a re-analysis of the deposited data

How the results depend on the processing

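The 2 members called higher became 4 with DESeq2 and with an unadjusted p, 3 with limma on log2(RPKM + 0.1) or log2(RPKM + 1), where *KRP7* was also called, 1 with limma-voom, RLE factors or no filter on low counts, 0 with reads across exon junctions, and 0 to 2 when 1 library was left out, of which 0 came from leaving out any Dex library. The 0 members called lower became 3 with DESeq2, 5 with an unadjusted p and 0 to 5 when 1 library was left out, where the 5 arose only without mock replicate 2. Of the other cell cycle genes, the 1 called higher became 0 with limma on log2(RPKM + 0.1) without a filter, 7 with an unadjusted p, 0 with junction reads and 0 to 2 when 1 library was left out, and the 1 called lower became 2 with DESeq2 and with limma on log2(RPKM + 0.1) or log2(RPKM + 1), 7 with an unadjusted p, 0 with junction reads and 0 to 5 when 1 library was left out. Among all genes, 7.23% were higher and 4.9% lower with DESeq2, and 4.53% and 1.66% with limma-voom. The shares were 12.4% and 10.2% with an unadjusted p, and 9.79% and 7.96% without mock replicate 2. With a replicate block, 1 member was higher, 0 were lower and 0 of the other genes were higher. For this and most other settings no share over all genes was worked out, so the counts are no result about these genes. Whether replicate numbers pair the libraries is not known. Correlations of libraries with the same number were -0.104, 0.000174 and 0.209, and those with different numbers lay between -0.242 and 0.220. So few libraries cannot decide this, and the values with a block describe a shared number only. Junction reads were fewer, with 13270 genes tested, and gave no value for *SIM*. The log2 change of *CYCA1;1* ranged from -0.46 to 0.0652 when 1 library was left out and changed sign without mock replicate 3 (0.0652) and without Dex replicate 1 (0.0649). Of the other comparisons of named members with their alternatives, 265 kept direction and side of the threshold, 15 lost the call and 21 gained it. Gains with an unadjusted p were fixed in advance, since members were named for an unadjusted p under 0.05. *CYCB1;3* and *CYCB1;4*, added after their values were seen, gained a call only without mock replicate 2. The tally is therefore no measure of how firm the calls are. The cause of the changes between settings was not tested.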

Other observations

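The A-type cyclin *CYCA2;1* (AT5G25380) was singled out after its values were seen. It had 0 reads across exon junctions in each mock library and 8, 12 and 6 in the Dex libraries, while its reads over the whole gene numbered 2, 5 and 15 in mock and 11, 13 and 15 in Dex replicates 1 to 3. The gene was too low for a test of junction reads, and its change over the whole gene was log2 0.59 ± 0.71 SE (adjusted p = 0.667 by edgeR).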
